A study of Mus musculus with 4 samples.

Results

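The 9 genes described here carry out or control the making of steroid hormones in the ovary: Lhcgr, Scarb1, Star, Cyp11a1, Fdx1, Hsd3b1, Cyp17a1, Hsd17b7 and Cyp19a1. They were taken by symbol from the 31053 gene rows of both deposited count matrices, and all 9 were present. The matrices hold single-cell RNA sequencing of ovary cells that were sorted for CD45 and CD11b and came from virgin wild-type C57BL/6J mice. The 2 groups are labelled 3 months and 15 months, with harvest ages of 2 to 3 and 14 to 17 months in the protocol, and the labels give neither group a transgene or a treatment. Each age was 1 library of 3 pools, each marked with its own barcoded antibody (a hashtag) and joined before the sort, so age and library cannot be told apart in these values. The series text gives 2 mice for each pool, whereas the protocol gives 6 young and 5 old animals, with 1 old pool from a single mouse that is not named.

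In the ovary, luteinizing hormone acts on its receptor, Lhcgr, and drives cholesterol toward steroid synthesis. Scarb1 takes cholesterol esters from lipoproteins, Star moves cholesterol into mitochondria, and Cyp11a1 cleaves its side chain to give pregnenolone, using electrons that Fdx1 carries to it from Fdxr. Hsd3b1 turns pregnenolone into progesterone and Cyp17a1 leads on to androgens, mainly in theca cells. Cyp19a1 and the 17-beta-hydroxysteroid dehydrogenases make estradiol, mainly in granulosa cells, and Hsd17b7 also serves cholesterol synthesis.

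All 9 genes are protein-coding in GENCODE M21 (GRCm38). Lhcgr lies at chr17:88716481-88791990 on the minus strand, Scarb1 at chr5:125277087-125341094 (minus), Star at chr8:25806555-25815982 (plus), Cyp17a1 at chr19:46667165-46673172 (minus), Hsd3b1 at chr3:98852194-98859794 (minus) and Hsd17b7 at chr1:169949535-169969241 (minus). Chromosome 9 holds 3 of them, Cyp11a1 at chr9:58006411-58027023 (plus), Fdx1 at chr9:51943306-51963556 (minus) and Cyp19a1 at chr9:54165937-54268110 (minus). The transcript ends that a 3′ library reads were searched for stretches of 50 bases that another gene also carries. Of 1643 such stretches of Cyp11a1, 61 (3.71%) were shared, with Gm17322 and Fuca2, and none of the other 8 genes had one.

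Because several of these genes were high in the same cells, 3 of their start regions are shown. RefSeq (GRCm38.p6) gave windows of 250 bases before a transcription start for 6 of the 9 genes, 9 windows in all, and those of Star, Cyp17a1 and Scarb1 were not used here. Each window was searched on both strands for AGGTCA, letters that nuclear receptors such as Nr5a1 (steroidogenic factor 1) are known to bind. It occurred in 3 of the 9 windows, against 14.0% of 32851 windows of that length over all genes, and a match is a description of the letters only. In the windows printed here, read 5′ to 3′ on the gene's strand, capitals mark a match. Of 2 Cyp11a1 windows, that at chr9:58014702-58014951 (plus) has it 28 bases before its start and that at chr9:57997774-57998023 has none and is not printed. Neither window ends at the gene start given above (58006411). The printed window belongs to a start inside the gene (58014952), and the other to a start before it (57998024). The Lhcgr window (chr17:88792015-88792264, minus) has the match 122 bases before its start, and the Hsd3b1 window (chr3:98859795-98860044, minus) has none. The remaining match was in 1 of 3 Cyp19a1 windows, chr9:54268165-54268414, 81 bases before its start.
Cyp11a1: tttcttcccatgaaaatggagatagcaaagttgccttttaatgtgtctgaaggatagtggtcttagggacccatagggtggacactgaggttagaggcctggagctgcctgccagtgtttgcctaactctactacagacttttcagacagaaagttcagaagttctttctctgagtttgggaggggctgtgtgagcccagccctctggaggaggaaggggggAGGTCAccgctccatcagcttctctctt
Lhcgr: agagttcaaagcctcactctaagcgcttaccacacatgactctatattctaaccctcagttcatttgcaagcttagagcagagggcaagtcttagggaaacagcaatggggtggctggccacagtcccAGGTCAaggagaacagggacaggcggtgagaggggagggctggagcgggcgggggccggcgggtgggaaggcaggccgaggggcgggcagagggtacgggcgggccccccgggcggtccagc
Hsd3b1: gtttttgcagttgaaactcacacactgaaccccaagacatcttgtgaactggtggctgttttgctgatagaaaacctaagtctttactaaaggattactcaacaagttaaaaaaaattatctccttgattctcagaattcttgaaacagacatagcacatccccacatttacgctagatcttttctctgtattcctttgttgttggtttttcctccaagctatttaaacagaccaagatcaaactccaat

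Barcodes with at least 500 genes, at least 1000 gene UMIs (unique molecular identifiers, each standing for 1 captured RNA molecule) and at most 10% mitochondrial UMIs were described, 1900 at 3 months and 4047 at 15 months, after barcodes with 2 hashtags were removed. The libraries held 27277073 and 45060166 gene UMIs, and 3 barcode sequences occurred in both. Marker genes placed 5333 barcodes in 16 immune groups and 520 in 9 non-immune groups (178 at 3 months, 342 at 15 months), while 94 barcodes carried immune and stroma markers together and are called mixed. By their markers the non-immune cells lie outside the CD45 and CD11b gate, and how they came into the sort was not tested. Of the non-immune barcodes, 35.4% at 3 months and 57.0% at 15 months carried no hashtag and so belong to no pool, against 0 of 1693 and 19 of 3640 immune barcodes. Groups were clustered without the 9 genes and without their pathway genes, and each is named by its markers and its 2 leading genes. Levels are CPM, UMIs of the gene in each 1000000 gene UMIs of the group. A 3′ library counts each molecule once whatever the transcript's length, so CPM were compared between genes. Brackets after a CPM hold exact 95% Poisson intervals. Those after a share of barcodes are 95% Wilson intervals, and those after a share of UMIs are exact 95% binomial intervals. All cover counting error only.

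**Figure D1:**
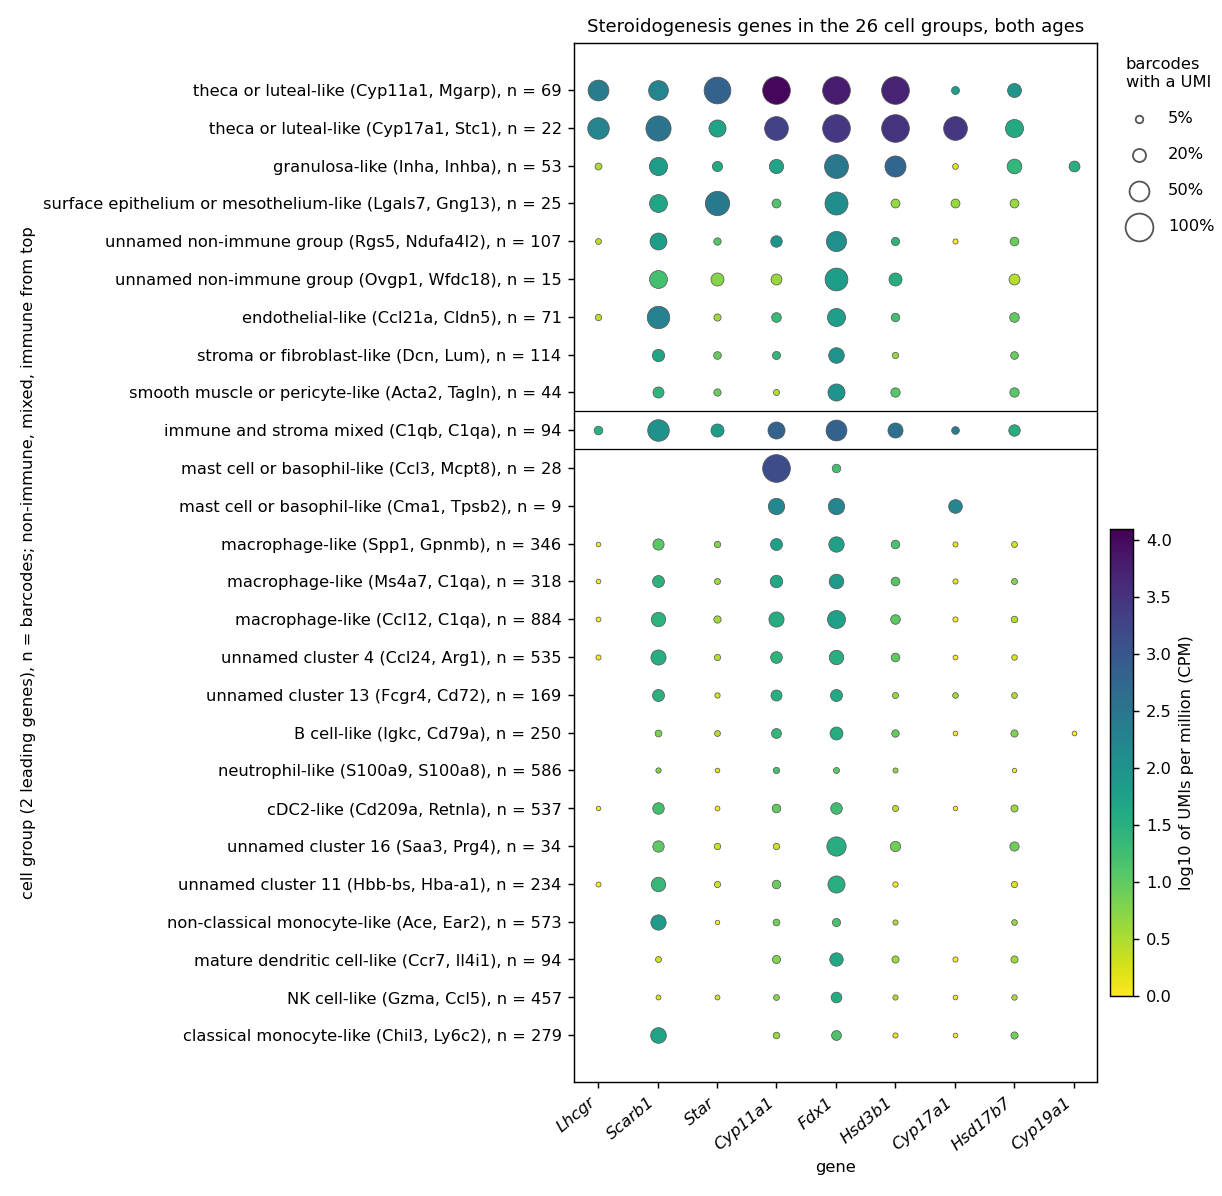
The 9 genes (columns) in the 26 cell groups (rows, with the number of barcodes), both ages together; colour is log10 of CPM, dot size grows with the percent of barcodes that hold a UMI, and no dot means no UMI. Both theca or luteal-like groups are high across most genes, and the basophil-like group led by Ccl3 and Mcpt8 is high for Cyp11a1 alone, at 1380 CPM.

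Of the 9 genes, 6 had most of their UMIs in 2 small groups that carry theca or luteal markers. The larger, led by Cyp11a1 and Mgarp, had 69 barcodes (16 at 3 months, 53 at 15 months), and the smaller, led by Cyp17a1 and Stc1, had 22 (15 and 7). Together these 91 of 5947 barcodes held 80.0% of all Cyp11a1 UMIs, 79.4% of Hsd3b1, 78.6% of Lhcgr, 65.5% of Cyp17a1, 65.3% of Fdx1 and 61.5% of Star. The other 3 genes did not follow: these groups held 27.9% of Hsd17b7, 14.5% of Scarb1 and none of Cyp19a1. Akr1cl, an aldo-keto reductase, Mgarp, a mitochondrial protein of steroid-making cells, Prlr, the prolactin receptor, and Fdxr were each seen in at least 90.9% of the barcodes of either group. Nr5a1 was seen in 55.1% of the larger and 72.7% of the smaller group. Other markers on the theca and luteal list were scarce: Insl3, a theca peptide, was in 0 of 69 and 2 of 22 barcodes, Akr1c18, which breaks down progesterone in the regressing corpus luteum, in 0 and 1, and Hsd3b6 in none. The markers therefore did not tell theca from luteal cells, and both groups keep the joint name. Ptprc, which encodes CD45, was in 2 of 69 and 1 of 22 barcodes. Haemoglobin genes stood among the leading genes of the larger group, with Hbb-bs at 3737 CPM in 25 of its 69 barcodes, and their part in the levels below was not tested.

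Lhcgr, the entry point of the pathway, was found in 38 of the 69 Mgarp-led barcodes, at 258 CPM (227 to 291). In the Cyp17a1-led group it was in 13 of 22, at 181 CPM (139 to 231), and the 2 intervals overlap slightly. The other 7 non-immune groups held 7 UMIs of Lhcgr in all, from 0 to 3.14 CPM. In the Mgarp-led group the level was 659 CPM (552 to 781) in the 16 barcodes of 3 months and 157 CPM (131 to 187) in the 53 of 15 months. In the Cyp17a1-led group it was 173 and 197 CPM. The single-library difference therefore appeared in 1 of the 2 groups, and whether the groups differ was not tested.

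Scarb1 did not follow the other genes. Its highest level was in the Cyp17a1-led group, at 350 CPM (290 to 418), followed by endothelial-like cells at 190 (161 to 223) and the Mgarp-led group at 171 (146 to 198), the last 2 with overlapping intervals. That order is of both libraries together and did not hold in each. At 3 months the Cyp17a1-led group had 405 CPM (328 to 495), the Mgarp-led group 243 (180 to 321) and endothelial-like cells 88.4 (57.8 to 130). At 15 months endothelial-like cells had 250 (208 to 298), the Cyp17a1-led group 232 (152 to 340) and the Mgarp-led group 152 (127 to 182). Each of the 9 non-immune groups held some Scarb1, from 16.9 CPM upward.

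Star was seen in 64 of 69 Mgarp-led barcodes, at 675 CPM (626 to 728), and in 8 of 22 Cyp17a1-led barcodes, at 51.6 (30.6 to 81.6). The group with the next highest level was not a theca or luteal one. Surface epithelium-like cells, which cover the ovary and were led here by Lgals7 and Gng13, had Star in 19 of 25 barcodes at 277 CPM (230 to 330). In the same 25 barcodes Cyp11a1 was at 13.4 CPM, Hsd3b1 at 4.47, and Lhcgr had no UMI. The limit set for a count of 0, 3 counts, was 6.70 CPM there, and the exact Poisson upper bound was 8.24. Their Star level was 102 CPM in 7 barcodes of 3 months and 320 in 18 of 15 months. Granulosa-like cells had 42.4 CPM of Star, from 6 of 53 barcodes.

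Cyp11a1 was the most abundant of the 9 genes. Every Mgarp-led barcode held it, with 7 to 849 UMIs and a median of 141, which gave 10795 CPM over the group. In the Cyp17a1-led group it was in 16 of 22 barcodes, at 1938 CPM. Fdx1, its electron carrier, was in every barcode of both groups, at 6073 and 2786 CPM. Hsd3b1 was likewise in all 91 barcodes, at 5029 and 3119 CPM. Summed, the 9 genes took a median of 1.96% of the UMIs of a Mgarp-led barcode (range 0.496% to 4.71%) and 1.01% of a Cyp17a1-led one (0.0538% to 2.86%). Star, Cyp11a1, Hsd3b1 and Fdx1 were all seen in 64 of the 69 and in 8 of the 22.

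Cyp17a1 divided the 2 groups the other way. It was in 16 of the 22 barcodes it leads, at 2786 CPM (2614 to 2967), and all 16 also held Cyp11a1. In the Mgarp-led group it was in 4 of 69 barcodes, at 74.4 CPM (58.5 to 93.2), where 1 barcode held 61 of the 75 UMIs. The clustering used genes that can vary with it, so this contrast is a description with no test. The remaining 7 non-immune groups held 4 UMIs of Cyp17a1 in all.

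Cyp19a1, the aromatase, was the rarest, with 24 UMIs in the described barcodes. Of these, 23 lay in 7 of the 53 granulosa-like barcodes (36.1 CPM, 22.9 to 54.2), at 21.4 CPM in 31 barcodes of 3 months and 56.9 CPM in 22 of 15 months, with overlapping intervals. Neither theca or luteal-like group held one, with limits of 2.98 and 8.60 CPM by 3 counts and exact Poisson upper bounds of 3.66 and 10.6. The same granulosa-like cells, led by the inhibin subunits Inha and Inhba, held Hsd3b1 in 30 of 53 barcodes at 582 CPM (524 to 645), and Cyp11a1 in 13 of 53 at 53.4 CPM (37.0 to 74.6). Hsd17b7 reached 90.2 CPM (72.7 to 111) in the Mgarp-led group, 40.1 (21.9 to 67.3) in the Cyp17a1-led group and 25.1 (14.4 to 40.8) in granulosa-like cells, the last 2 overlapping. In the Mgarp-led group Hsd17b7 was at 258 CPM (192 to 338) in the library of 3 months and 48.4 (34.4 to 66.1) in that of 15 months. The Cyp17a1-led group had 38.0 (17.4 to 72.1) and 44.7 (14.5 to 104), so the Mgarp-led group was above it at 3 months and overlapped it at 15 months.

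The mixed barcodes stood apart in spread. Their 94 barcodes held 2861 UMIs of the 6 genes that are largely gonadal (Star, Cyp11a1, Cyp17a1, Cyp19a1, Hsd3b1 and Lhcgr), and 15 barcodes with 10 or more held 97.8% of them. They enter neither the immune nor the non-immune values.

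Pool values use only barcodes with 1 hashtag, 21 to 56 non-immune cells in a pool, of which 1 to 6 were theca or luteal-like. In bulk sums such as these, fewer cells of a type and less RNA in each cell cannot be told apart. Age was tested with edgeR's quasi-likelihood test over the 3 pools of each age, with Benjamini-Hochberg adjustment over all genes tested; log2 differences are 15 minus 3 months with their standard errors. Of the 8 genes tested in non-immune cells, 0 passed an adjusted p of 0.05, against 0.0399% of all 7526 genes tested (3 genes). Of the 8, 7 had a lower fitted level at 15 months, with a median log2 difference of -0.59, against 0.01 over all genes tested. In every pool most UMIs of Cyp11a1, Hsd3b1, Lhcgr and Fdx1 came from the same 1 to 6 theca or luteal-like cells. The genes are therefore not independent, and their shared direction is not a result for each gene. By unadjusted p under 0.05, 2 of the 8 stood out, against 11.4% of all genes.

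**Figure D2:**
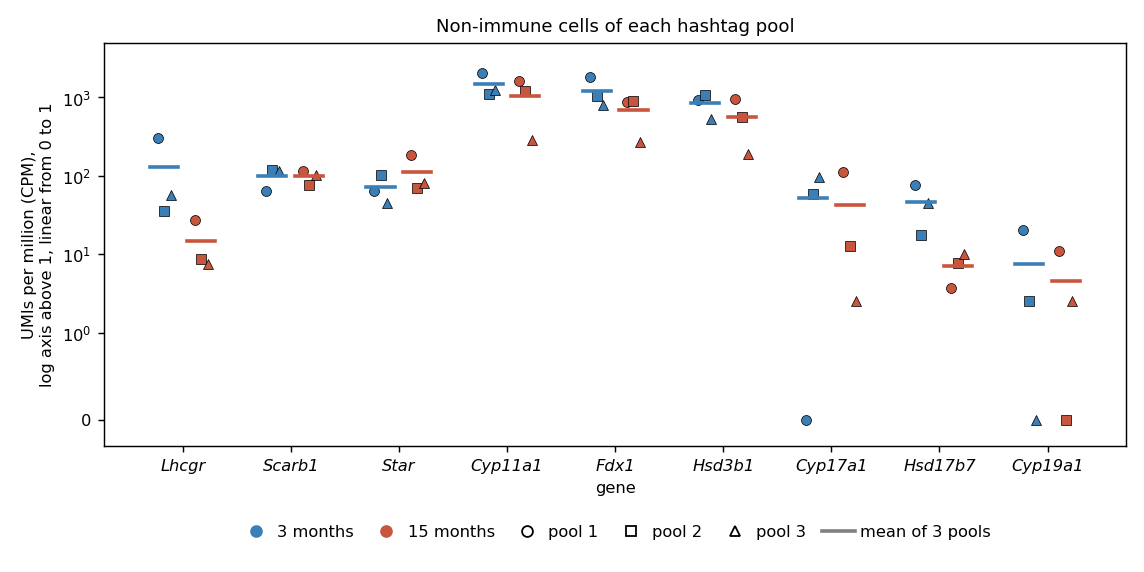
CPM of each of the 9 genes in the non-immune cells of each pool, by age, on an axis that is linear from 0 to 1 and logarithmic above; points are pools and the line is the mean of 3 pools. Lhcgr and Hsd17b7 are the genes whose 3 pools of 15 months all lie below the 3 of 3 months.

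Those 2 genes, Lhcgr and Hsd17b7, were also the 2 of the 8 whose pools did not overlap and were lower at 15 months, against 8.94% of all genes tested. The receptor Lhcgr stood at 300, 35.4 and 57.0 CPM in the pools of 3 months and at 27.7, 8.77 and 7.55 in those of 15 months, so the ages did not overlap. The means were 131 ± 147 and 14.7 ± 11.3 CPM (SD, n = 3 pools each), the edgeR log2 difference was -3.17 ± 0.85 and the adjusted p was 0.244. Pool 1 of 3 months stands far above the other 2, and 1 barcode gave 43 of its 74 UMIs. Within the theca or luteal-like cells alone, 4, 5 and 5 cells of 3 months gave 1563, 171 and 410 CPM and 3, 6 and 1 cells of 15 months gave 195, 85.4 and 264, which overlap. Hsd17b7 stood at 77.0, 17.7 and 45.1 CPM and at 3.70, 7.79 and 10.1, again without overlap. Its means were 46.6 ± 29.7 and 7.19 ± 3.23 CPM (SD, n = 3), and the edgeR log2 difference of -2.53 ± 0.55 had an adjusted p of 0.152. Each passed the adjusted threshold under other settings. With DESeq2 Hsd17b7 passed (adjusted p = 0.0211, background 0.771%), with the hashtag number as a block edgeR called Lhcgr (adjusted p = 0.0381, background 0.228%), and without the filter on low counts edgeR called both (adjusted p = 0.0243 for Lhcgr and 0.0294 for Hsd17b7, background 0.538%). With MULTIseqDemux the differences were smaller, -1.62 for Lhcgr and -1.47 for Hsd17b7, and neither was called. Among genes of at least 50 CPM that passed in non-immune cells without overlap, the haemoglobin gene Hbb-bs fell (262 ± 43.5 to 15.5 ± 5.35 CPM, edgeR adjusted p = 0.00131) and the complement gene C3 rose (11.4 ± 4.05 to 176 ± 78.3, edgeR adjusted p = 0.0318; SD, n = 3 pools each). The fall of Hbb-bs was not particular to non-immune cells. It was lower at 15 months in each immune class with at least 20 barcodes at both ages. In macrophage-like cells it went from 384 to 11.5 CPM, and in NK cell-like cells from 655 to 25.7. Age and library cannot be told apart in it, and the part of blood RNA in the values of the 9 genes was not tested.

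Scarb1 hardly moved in these pools, at 64.9, 119 and 115 CPM against 115, 76.9 and 103 (log2 -0.07 ± 0.26). Star was the gene with a higher fitted level at 15 months, 64.9, 104 and 45.1 CPM against 183, 70.1 and 81.8 (0.64 ± 0.43, edgeR adjusted p = 0.641), with overlapping pools. Cyp11a1 stood at 2060, 1116 and 1233 CPM against 1625, 1203 and 284 (-0.50 ± 0.52, edgeR adjusted p = 0.793), and the difference was -2.17 without theca or luteal-like cells and 0.061 with MULTIseqDemux, neither called. The lowest of these, pool 3 of 15 months, held 1 theca or luteal-like cell, and 1 cell gave 90.3% of its Cyp11a1. Fdx1 (-0.83 ± 0.46) and Hsd3b1 (-0.58 ± 0.49) had their lowest levels in the same pool, 269 and 189 CPM. For Hsd3b1 the difference was -1.53 with the strict cell filter, -2.02 without theca or luteal-like cells and 0.13 with MULTIseqDemux, none called. Cyp17a1 ranged from 0 to 96.8 CPM at 3 months and from 2.52 to 113 at 15 months, and Cyp19a1 (20.3, 2.53 and 0 against 11.1, 0 and 2.52) was too low to test. Inside the theca or luteal-like cells Hsd3b1 was at 3633, 4929 and 3617 CPM against 6280, 5743 and 6761, and Cyp11a1 at 10729, 4729 and 8799 against 11184, 13033 and 10775. For both genes the pools of 15 months lay above those of 3 months here, by a narrow gap for Cyp11a1. That direction is opposite to the sums over all non-immune cells. How many of all genes do so within these cells was not counted. Pool 3 of 15 months, the lowest in the sums over all non-immune cells, was not low within these cells. With 1 to 6 cells a pool, the level within them was not tested.

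The number of theca or luteal-like cells depends on how barcodes without a hashtag are treated. Among barcodes with 1 hashtag they were 0.837% ± 0.286 of the cells in the pools of 3 months and 0.264% ± 0.147 in those of 15 months (SD, n = 3 each). The pools did not overlap, and a two-sided exact permutation test gave p = 0.1, the smallest it can give for 3 against 3. With the barcodes that carry no hashtag included, the libraries held 31 of 1900 (1.63%, 95% Wilson interval 1.15 to 2.31) and 60 of 4047 (1.48%, 1.15 to 1.90). No hashtag was found on 17 of the 31 cells of the younger library and on 50 of the 60 of the older one. With MULTIseqDemux in place of HTODemux the pool shares were 1.38% ± 0.495 and 1.10% ± 0.817 and overlapped (exact permutation p = 0.6). With the strict cell filter they were 0.420% ± 0.526 and 0.0185% ± 0.0320 and overlapped too (exact permutation p = 0.4). That filter allows at most 5% mitochondrial UMIs, and the median of the Mgarp-led barcodes described here was 7.54%. With the loose cell filter the pool shares were 0.863% ± 0.12 and 0.282% ± 0.15, without overlap (exact permutation p = 0.1). All non-immune cells were 6.35% ± 2.00 and 4.57% ± 1.86 of the pools (exact permutation p = 0.4).

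In immune cells RNA of the same genes was present at a low level in many barcodes. RNA taken up with engulfed cells and free RNA of the suspension cannot be told apart in these counts. The 6 gonadal genes gave no UMI in 4489 of 5296 immune barcodes (mast cell or basophil-like ones left out), 1 UMI in 559, 2 in 137, 3 or 4 in 61 and 5 or more in 50. These 50 barcodes, 17 of 3 months and 33 of 15 months, held 38.4% of the 1689 UMIs, and the highest single barcode had 199. Macrophage-like cells made up 70.6% and 66.7% of the 50 at the 2 ages, against 31.4% and 21.1% of the barcodes with none. The luteal and theca marker Akr1cl was in 76.5% and 69.7% of the 50, against 7.65% and 6.94% of the barcodes with none. Dcn, a stroma marker, was in 5.88% and 18.2% of the 50, against 0.546% and 2.55%. Their median depth was also higher, 11985 and 14731 UMIs against 6750 and 6632, and its part was not tested, nor was that of doublets.

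**Figure D3:**
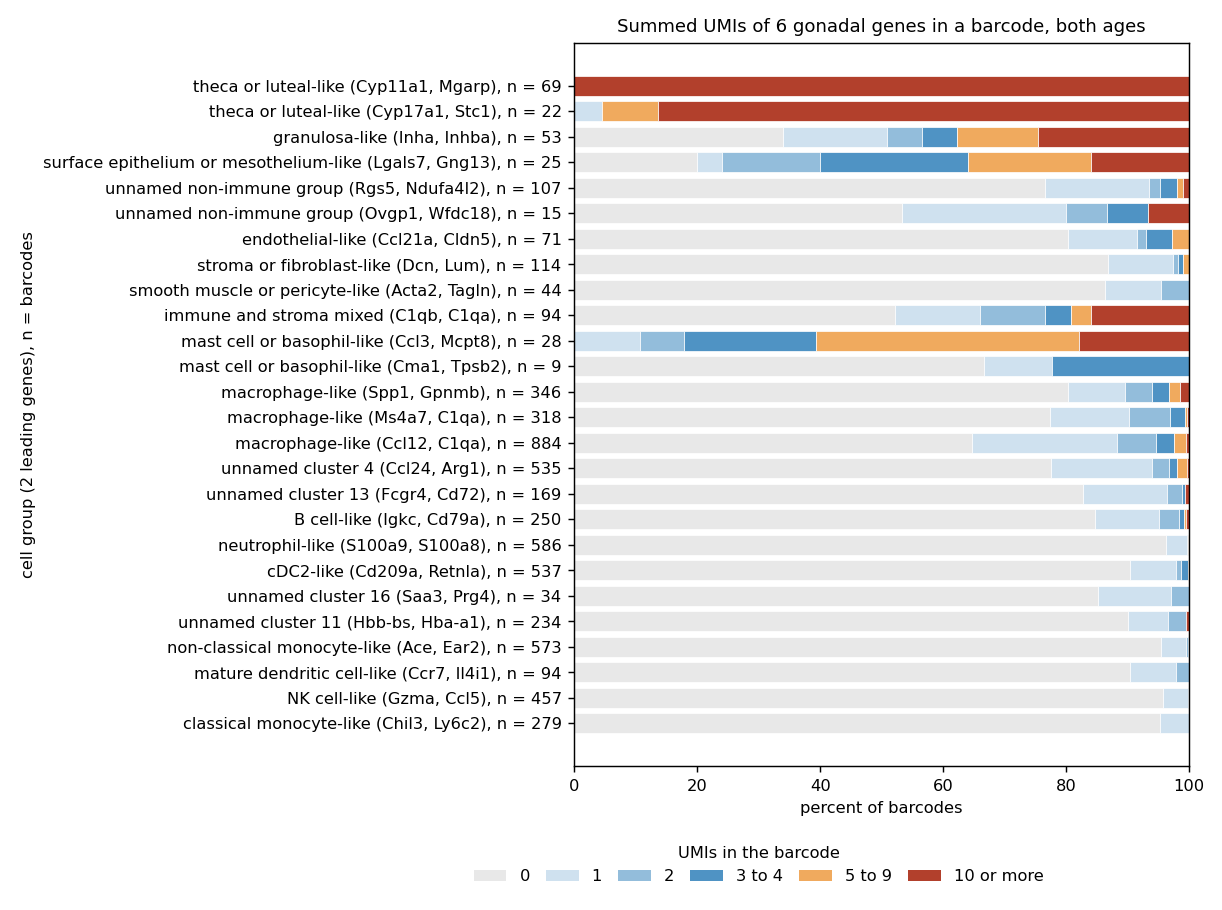
Percent of barcodes by their summed UMIs of the 6 gonadal genes (0, 1, 2, 3 to 4, 5 to 9, 10 or more), 1 bar for each cell group, both ages together. All 69 Mgarp-led barcodes and 19 of the 22 Cyp17a1-led ones hold 10 or more, whereas most immune barcodes hold 0, and 4 barcodes of the macrophage-like group led by Ccl12 hold 10 or more.

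Cyp11a1 was the most common of the 6 in immune cells, and the macrophage-like groups held most of it. The group led by Spp1 and Gpnmb stood at 12.2 CPM (7.93 to 18.1) at 3 months and 94.8 (83.4 to 107) at 15 months, where 1 barcode held 146 of 248 UMIs. The group led by Ms4a7 stood at 91.4 and 29.3 CPM and that led by Ccl12 at 59.5 and 29.9, so the order of the 3 turned between the libraries. At the low end over both ages were NK cell-like cells at 5.62 CPM and classical monocyte-like cells at 4.28. RNA of the stroma marker Dcn was also higher in macrophage-like than in NK cell-like cells at 15 months. It stood at 19.9 CPM (17.5 to 22.5) against 0.887 (0.0225 to 4.94). A UMI was found in 247 of 884 macrophage-like barcodes led by Ccl12 (27.9%) and in 9 of 457 NK cell-like barcodes (1.97%), a type that should lack the gene, at median depths of 10437 and 3554 UMIs. Thinned to 2000 UMIs a cell, which left out 61 and 33 macrophage-like and 17 and 7 NK cell-like barcodes of the 2 ages, the shares were 6.27% (4.54 to 8.60) of macrophage-like and 0.562% of NK cell-like barcodes at 3 months, and 4.80% (3.58 to 6.40) and 1.57% at 15 months, against 21.0% and 0.513%, and 25.0% and 3.05%, before thinning. Other immune classes lay between or above: at 15 months the thinned share was 8.82% (5.12 to 14.8) in unnamed cluster 13, 5.39% (3.62 to 7.95) in unnamed cluster 4, 3.86% (2.05 to 7.18) in B cell-like and 3.46% (1.94 to 6.09) in neutrophil-like cells, all overlapping the macrophage-like interval. Over the 6 pools, macrophage-like cells had 41.5 ± 10.9 CPM (SD, n = 6) with a lowest pool of 24.6, above the highest pool of the NK cell-like (10.7), classical monocyte-like (10.4), non-classical monocyte-like (18.7) and cDC2-like cells (15.7). The neutrophil-like cells, with a highest pool of 29.1 CPM, overlapped. Among the groups with no pool values here, unnamed cluster 13 had 31.0 CPM over both ages, unnamed cluster 4 had 27.9 and B cell-like cells 24.3, near the lowest macrophage-like pool. Hsd3b1 followed at 10.6 to 15.0 CPM in the 3 macrophage-like groups, and Star at 6.01, 4.04 and 4.02. Over all 16 immune groups Cyp17a1 gave 36 UMIs, Lhcgr 17 and Cyp19a1 1.

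Among the 6 genes Cyp11a1 came first and Hsd3b1 next in macrophage-like cells, as in theca or luteal-like cells, with a larger part of Cyp11a1 and of Star in the former. Of the 345 gonadal UMIs of macrophage-like cells at 3 months, 73.0% were Cyp11a1 (68.0 to 77.7), 18.6% Hsd3b1 and 5.51% Star. Of the 766 at 15 months these were 70.0% (66.6 to 73.2), 19.7% and 8.09%. The make-up was similar in the other immune cells, mast cell or basophil-like ones left out. There the 3 genes gave 62.6% (53.1 to 71.5), 24.3% and 4.35% at 3 months. At 15 months they gave 68.3% (63.8 to 72.5), 21.4% and 7.56%. At both ages the Cyp11a1 interval overlapped that of macrophage-like cells. Theca or luteal-like cells had 49.9%, 30.2% and 1.97% at 3 months, and 61.2%, 31.4% and 4.04% at 15 months. Cyp17a1 was 14.4% and then 2.32% of the UMIs of theca or luteal-like cells, and 1.74% and 1.70% of those of macrophage-like cells. Granulosa-like cells had another make-up, with Hsd3b1 at 87.4% and 76.5% and Cyp19a1 at 4.21% and 5.60%. Fdx1, which many cell types use, gave 157 and 133 UMIs per 100 of Cyp11a1 in macrophage-like cells, against 81.4 and 56.1 in theca or luteal-like cells.

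**Figure D4:**
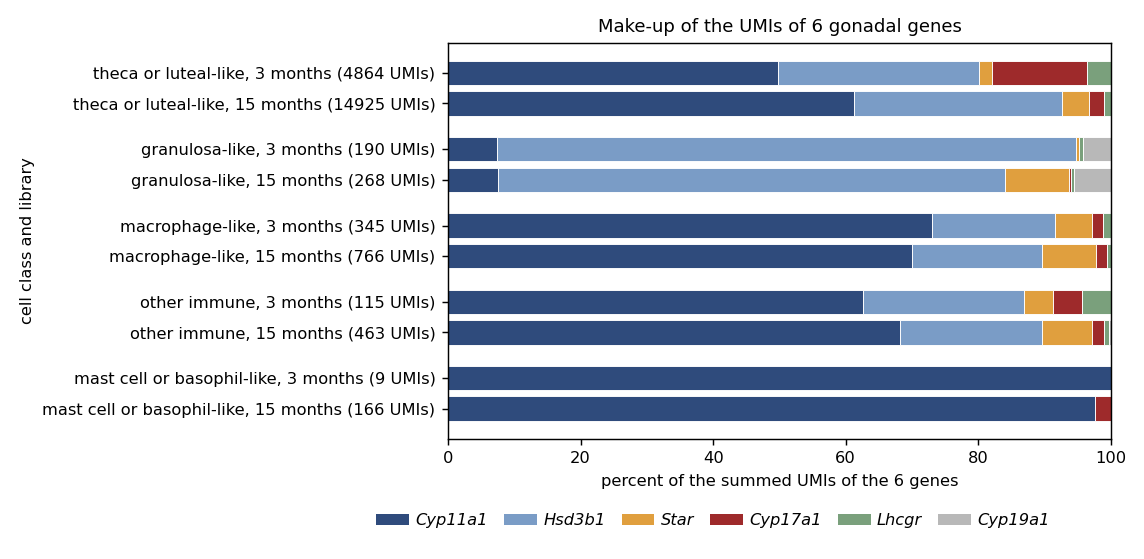
Percent of the summed UMIs of the 6 gonadal genes that each gene gave, by cell class and library. Cyp11a1 is the largest part in theca or luteal-like, macrophage-like (73.0% and 70.0%) and other immune cells. Hsd3b1 is the largest in granulosa-like cells, and Cyp11a1 is nearly the whole of the mast cell or basophil-like bar.

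One immune group held Cyp11a1 by itself. The 28 basophil-like barcodes (3 at 3 months, 25 at 15 months), which expressed Fcer1a in 92.9%, Cpa3 in 85.7% and the basophil protease Mcpt8, with no UMI of the mast cell proteases Cma1 and Tpsb2, all held Cyp11a1. They had 1 to 13 UMIs each with a median of 6, or 1380 CPM (1179 to 1606), at 521 CPM in the 3 cells of 3 months and 1523 in the 25 of 15 months. Star, Hsd3b1, Cyp17a1, Cyp19a1, Lhcgr, Hsd17b7 and Scarb1 were at 0 in these barcodes, and Fdx1 had 2 UMIs. Of the 9 theca and luteal markers, 6 were at 0 in these barcodes (Mgarp, Prlr, Nr5a1, Insl3, Akr1c18 and Hsd3b6) and Akr1cl, Ptgfr and Fdxr had 1 UMI each. Ptprc was in 19 of the 28. Haemoglobin Hbb-bs was in 6 of the 28, at 35687 CPM over the group, and its part in the Cyp11a1 level was not tested. The level was below that of the Cyp17a1-led theca or luteal-like group (1938 CPM) and above those of the other immune groups, the next being 9 mast cell-like barcodes with 4 UMIs (164 CPM). Thinned to 2000 UMIs, 26 of 30 mast cell or basophil-like barcodes at 15 months still held Cyp11a1 (86.7%, Wilson interval 70.3 to 94.7). The group has too few cells in most pools for a test by age.

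Scarb1 and Fdx1 had patterns of their own in immune cells. Scarb1, also a scavenger receptor, was highest in monocyte-like cells among the immune classes: over the 6 pools it stood at 74.5 ± 26.8 CPM in non-classical monocyte-like cells, 48.5 ± 19.5 in classical ones, 20.3 ± 7.17 in macrophage-like, 14.9 ± 4.73 in cDC2-like, 6.53 ± 9.71 in neutrophil-like and 1.36 ± 1.63 in NK cell-like cells (SD, n = 6 pools). The pools of each class in that order overlapped those of the next, while the lowest cDC2-like pool (7.34 CPM) was above the highest NK cell-like pool (3.43). Non-immune cells, at 99.0 ± 22.7 CPM, overlapped the non-classical monocyte-like cells. Immune cells outside the mast cell and basophil groups held 58.1% of all Scarb1 UMIs. Fdx1 stood at 954 ± 505 CPM in non-immune, 62.9 ± 13.8 in macrophage-like and 42.5 ± 14.5 in NK cell-like cells, the last 2 overlapping. Below them cDC2-like, both monocyte-like and neutrophil-like cells had means of 14.2 to 17.3 CPM, with overlapping pools.

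**Figure D5:**
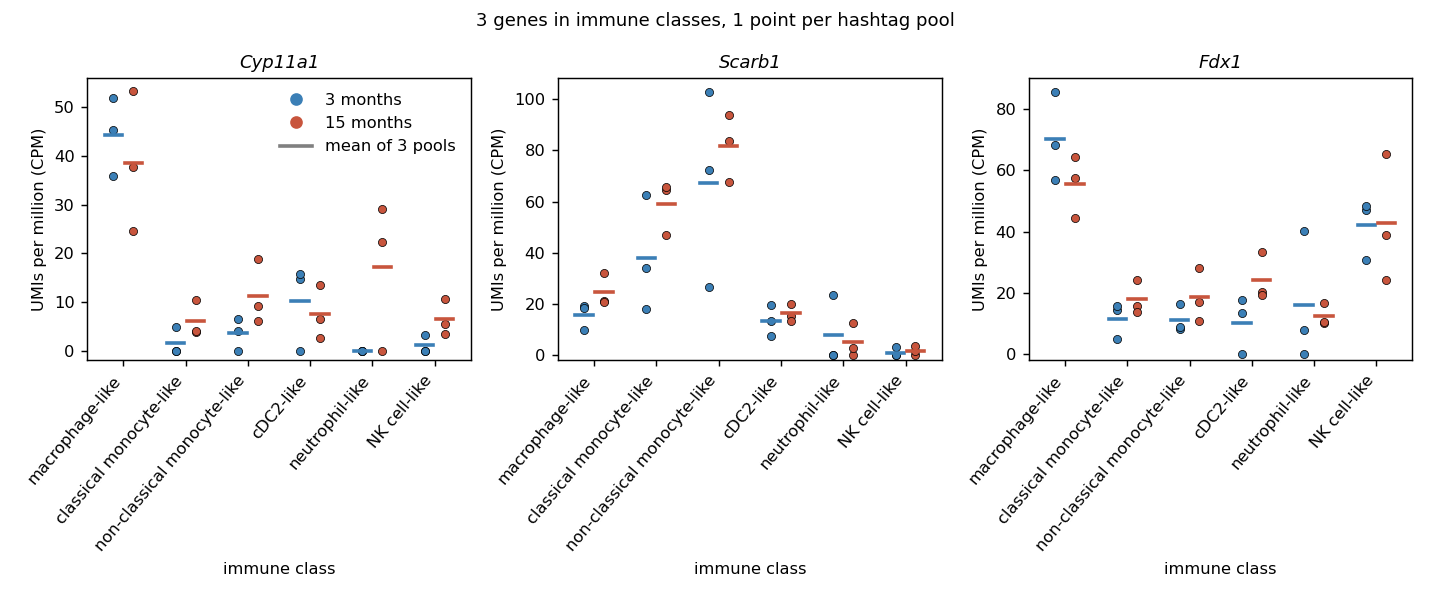
CPM of Cyp11a1, Scarb1 and Fdx1 in 6 immune cell classes; each point is 1 pool, the ages stand side by side, and the line is the mean of 3 pools. Cyp11a1 is highest in macrophage-like cells (24.6 to 53.3 CPM), Scarb1 in the 2 monocyte-like classes, and Fdx1 in macrophage-like and NK cell-like cells.

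None of the genes passed the age test in immune cells. Over all immune cells 0 of 6 tested genes were called, against 0.0845% of 10647 genes, with a median log2 difference of 0.03. By unadjusted p under 0.05, 1 of the 6 was past it (Fdx1, log2 -0.32 ± 0.14), against 17.5% of all genes, and DESeq2 called none of them. Cyp11a1 stood at 15.9, 29.6 and 27.2 CPM in the pools of 3 months and 31.8, 35.0 and 21.7 in those of 15 months (0.12 ± 0.25, edgeR adjusted p = 0.843). In macrophage-like cells edgeR called 0 of 4, against 0.112% of 8944 genes, and 0 of 4 had an unadjusted p under 0.05, against 13.5% of all genes. There Cyp11a1 stood at 35.9, 52.0 and 45.3 CPM against 37.8, 53.3 and 24.6 (-0.27 ± 0.26, edgeR adjusted p = 0.677), with wide overlap. Macrophage-like Scarb1 did not overlap, at 19.2, 9.71 and 18.5 CPM against 21.2, 32.1 and 20.9 (0.61 ± 0.29, edgeR adjusted p = 0.391), as in 14.3% of all genes tested there. Scarb1 was the single gene of the 9 high enough to test in either monocyte-like class. It was called neither in classical monocyte-like cells (38.1 ± 22.6 against 59.0 ± 10.5 CPM, SD, n = 3 each, log2 1.01 ± 0.40, edgeR adjusted p = 0.207), where 0.795% of 3398 genes were and 18.4% had an unadjusted p under 0.05, as Scarb1 had, nor in non-classical ones (0.07 ± 0.30), where 0.252% of 3973 genes were. Fdx1 was the single gene tested in cDC2-like cells (0.65 ± 0.43, edgeR adjusted p = 0.614) and in NK cell-like cells (-0.18 ± 0.43, edgeR adjusted p = 0.917), and it was called in neither, against 0.153% and 0.439% of all genes tested there. None of the 9 was high enough to test in neutrophil-like cells, where 0.248% of genes were called.

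Over all cells of a pool together, 0 of 8 genes tested were called, against 0.0589% of 11882 genes, with Lhcgr at 24.9, 5.62 and 9.45 CPM against 2.96, 2.13 and 0.749 (log2 -2.84 ± 0.63, edgeR adjusted p = 0.156). By unadjusted p under 0.05, 3 of the 8 (Lhcgr, Fdx1 and Cyp17a1) were past it, against 16.7% of all genes. These sums include the mixed barcodes, where 5 barcodes of 3 months held 511 Cyp17a1 UMIs (279 in 1) and those of 15 months none. Non-immune cells alone gave a Cyp17a1 log2 difference of -0.60 ± 1.08, with overlapping pools. With DESeq2 both Lhcgr (adjusted p = 0.000320) and Fdx1 (adjusted p = 0.00799) passed over all cells, against 2.1% of all genes. The test of whether the age difference itself differs between non-immune and immune cells called none of the 9, against 0.199% of 12039 genes. Hsd17b7 came nearest, with a difference of log2 differences of -2.19 ± 0.63 (edgeR adjusted p = 0.284), and was the 1 gene of the 9 with an unadjusted p under 0.05, against 7.77% of all genes.

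None of the other pathway genes passed the age test in non-immune cells, where 0.0399% of all genes tested did. An unadjusted p under 0.05 was found there for 11.4% of all genes. Of 18 other genes of steroid synthesis and its redox partners 14 could be tested and none rose or fell (3 had an unadjusted p under 0.05), with a median log2 difference of -0.44. The highest were Akr1cl, Mgarp and Cyb5a, the cytochrome b5 that aids Cyp17a1, at 1798, 741 and 463 CPM. Of 18 genes of cholesterol supply 14 were tested and none passed (median 0.18; 0 by unadjusted p under 0.05), led by Soat1, which esterifies cholesterol (473 CPM), Tspo (318) and Npc2 (311). Of 12 gonadal receptors and regulators 10 were tested and none passed (median -0.23; 3 by unadjusted p), led by Inha (432 CPM), Prlr (278) and Cebpb (251). Prlr was nearest to the threshold, at 316 ± 92.9 CPM at 3 months and 98.0 ± 27.6 at 15 months (SD, n = 3 each, log2 -1.70 ± 0.30, edgeR adjusted p = 0.0864). Its pools did not overlap and were lower at 15 months, as in 8.94% of all genes tested there.

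Across 38 profiles (a cell group in a library with at least 20 barcodes), the genes whose log level was most like the mean of Star and Cyp11a1 were Cst8 (Pearson r = 0.886), Aldh1a1 (0.879), Mgarp (0.871), Hao2 (0.868), Folr1, Me1, Prlr, Fam213a, Fdxr and Mrap (0.822). All 10 were highest in the Mgarp-led cells of 15 months, the only theca or luteal-like profile with that many barcodes, so r rests largely on it. The profiles also share 2 libraries and differ in depth, and r is a description. Among the 9 genes r was 0.882 for Lhcgr, 0.865 for Fdx1, 0.842 for Hsd3b1, 0.664 for Cyp17a1, 0.616 for Hsd17b7, 0.439 for Scarb1 and 0.159 for Cyp19a1. Of these, Cyp17a1, Scarb1 and Cyp19a1 are the genes described above as highest outside the Mgarp-led group. Within the 38 profiles Hsd17b7 and Cyp17a1 were highest in mixed barcodes, at 48.6 CPM (15 months) and 722 CPM (3 months).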

How the data were processed

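The deposited files are UMI count matrices of 2 libraries (10x Genomics 3′ v3.1, with TotalSeq-B hashtag antibodies), which per the file headers the authors made with Cell Ranger 4.0.0. The submitters' processing notes name Cell Ranger 7.0.0, FastQC 0.11.4 and mm10, and the difference in version was not resolved. The counts were used as deposited. Hashtags were called in each library with HTODemux (Seurat 5.3.0, quantile 0.99): 2232 and 4347 barcodes passed the limits on depth given in the report, of which 332 and 300 carried 2 hashtags and were left out, and 63 and 214 carried none. These last were described but belong to no pool. Pools held 449 to 920 and 739 to 2205 cells.

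Cells of both libraries were clustered with scanpy 1.11.5 (2000 variable genes, 30 principal components, 15 neighbours, leidenalg 0.10.2 at resolution 0.6, and 0.8 within non-immune cells). A cluster was named only where at least 3 markers of a list were detected and the list led the others; the limits for this were set after the clusters were seen, so cell names may differ from those of the study. Scrublet called 3 barcodes in each library, too few to have worked, so doublets within a pool remain. Raw counts of a class were summed in each pool with at least 10 of its cells and tested with edgeR 4.0.16 (R 4.3.3; filterByExpr, TMM, quasi-likelihood, age as the single term) over all genes, adjusted by Benjamini-Hochberg. Since the labels do not tie pools to named animals, and a library is 1 sort, p-values measure the spread between these pools. Shares were compared with exact permutation tests (scipy 1.17.1). The share of cells with a UMI was also given after thinning each cell to 2000 UMIs. The test was checked on data simulated with the same spread for all genes. Sums that rest on a few cells differ from this, so the check does not cover them.

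By the rule for named genes the text gives all 9 genes, the pathway genes that passed (1 such result is not reported here), the 3 of each list with the highest CPM in non-immune cells, the 10 genes with the profile most like Star and Cyp11a1 (log2 of CPM + 10, mean of at least 5 CPM), and up to 5 genes each way that passed in non-immune cells without overlap at 50 CPM or more. The 9 genes and all lists were chosen with earlier results of these data known. Alternatives covered DESeq2 1.42.0, low-count filters, each pool left out, the hashtag number as a block, other hashtag callers, cell filters, clusterings and doublet removals. 3 of them, without the cells of highest scrublet score, without theca or luteal-like cells and with the mixed cells added, were chosen after seeing the data. Promoter windows are RefSeq GRCm38.p6 and gene positions GENCODE M21.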

Additional observations from a re-analysis of the deposited data

Results flagged for a closer look

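Barcodes with 2 hashtags entered none of the values above, yet they held Cyp11a1 at levels like those of barcodes with 1 hashtag. Cyp11a1 was at 150.3 CPM in the 332 such barcodes of 3 months and at 150.0 CPM in the 300 of 15 months. Barcodes with 1 hashtag had 181 and 118 CPM of Cyp11a1, and barcodes with none had 1188 and 3723 CPM. These are values of 1 library each and were not tested.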

How the results depend on the processing

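The count of the 9 genes that passed the age test was 0 in 88 of 92 settings over 10 comparisons. In non-immune cells it was 1 with DESeq2 (against 0.771% of all genes), 1 with the hashtag number as a replicate block (0.228%) and 2 without the filter on low counts (0.538%). In all cells with DESeq2 it was 2, against 2.1% of all genes. The cause was not tested. The genes in non-immune cells were Hsd17b7 with DESeq2 (log2 -2.62), Lhcgr with the replicate block (-2.90) and, without the filter, Hsd17b7 (-2.55) and Lhcgr (-3.15). Leaving out 1 pool gave -3.86 to -1.80 for Lhcgr and -2.94 to -2.11 for Hsd17b7 in non-immune cells, and MULTIseqDemux gave -1.62 and -1.47. Without theca or luteal-like cells Cyp11a1 was -2.17 and Hsd3b1 -2.02 there, and with the strict filter Hsd3b1 was -1.53. Under both of these Lhcgr and Hsd17b7 were too low to test. In immune cells Hsd3b1 was -1.33 both at Leiden resolution 1.0 and with the mixed cells added. Pools with the same number correlated at 0.12, -0.09 and 0.06 in non-immune cells and at 0.11, 0.013 and 0.13 in immune cells. Not every pool correlated best with its own number, and these values do not settle whether the numbers pair the pools.

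None of the values that turned direction was called. In non-immune cells Cyp11a1 was 0.061 and Hsd3b1 0.13 with MULTIseqDemux, where the difference in the non-immune share was 0.0912 percentage points. Scarb1 was 0.49 with the strict cell filter and 0.56 without theca or luteal-like cells. Leaving out 1 pool gave -0.27 to 0.045 for Scarb1 and -2.80 to 0.24 for Cyp17a1. In immune cells Star was -0.63 and Cyp11a1 -0.44 at Leiden resolution 1.0, and -0.57 and -0.44 with the mixed cells added. Hsd3b1 was 0.043 with MULTIseqDemux, 0.076 with the loose filter and 0.22 without immune cells of 5 or more gonadal UMIs. Hsd17b7 was 0.0030 without the cells of highest scrublet score, 0.078 without those of 5 or more gonadal UMIs and 0.011 with the mixed cells added. Leaving out 1 pool gave -0.079 to 0.30 for Cyp11a1, -0.27 to 0.18 for Hsd3b1 and -0.60 to 0.21 for Hsd17b7.

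Averaged over pools, thinning to 2000 UMIs lowered the share of cells with a UMI for the genes given here. In non-immune cells it went to 7.23% for Star, 14.1% for Cyp11a1, 3.08% for Hsd17b7, 3.40% for Lhcgr, 12.4% for Scarb1 and 25.8% for Fdx1. In immune cells it went to 0.189% for Star, 3.46% for Cyp11a1, 1.38% for Hsd3b1, 0.661% for Hsd17b7, 4.53% for Scarb1 and 6.41% for Fdx1. Thinning also left out 5 non-immune and 392 immune cells below that depth. In single classes some shares rose, such as Cyp11a1 in mast cell or basophil-like cells of 15 months, from 82.4% to 86.7%.

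The number of all genes called moved too. It is drawn from far more genes, so its size cannot be set against the count of the 9. In non-immune cells 3 became 58 with DESeq2, 90 without the filter, 19 with the replicate block, 12 with the strict, 9 with the loose filter and 7 with MULTIseqDemux, and 1 to 13 with 1 pool left out. In immune cells 9 became 213 with DESeq2, 210 without the filter, 35 with MULTIseqDemux, 41 with the loose filter, 22 with the block, 14 without cells of 5 or more gonadal UMIs, and 5 both at Leiden resolution 1.0 and with the mixed cells added. Leaving out 1 pool gave 0 to 118 there, 0 to 23 in all cells (7), 5 to 540 in macrophage-like (10), 3 to 242 in classical monocyte-like (27), 4 to 16 in cDC2-like (8), 7 to 27 in NK cell-like (15) and 9 to 18 in non-classical monocyte-like cells (10), and 1 to 72 for the difference between non-immune and immune cells (24). With DESeq2 these were 250 in all, 59 in macrophage-like, 18 in cDC2-like and 16 in non-classical monocyte-like cells.

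Non-immune pools held 21 to 56 cells, so 1 cell can set a level. Permutation over 3 against 3 pools cannot go below p = 0.1.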
